A study of Mus musculus with 7 samples.

Results

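Fos binding was examined at 46 genes of the presynaptic vesicle release machinery, out of 21887 protein-coding genes of the mouse RefSeq annotation (GRCm38.p6) used here. The members were listed by name and function, with earlier results of these data known: 5 SNARE proteins, 8 regulators of SNARE assembly and recycling, 15 synaptotagmins and Doc2 proteins, 8 proteins of the synaptic vesicle and 10 proteins of the active zone. A peak or merged region was assigned to a gene by any part of it. That part had to lie inside the annotated span of the gene or within 10 kb of it. Across the 3 lists from kainic acid animals, 42 of the 46 members had a Fos region shared by at least 2 lists.

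Hippocampal chromatin from wild-type C57BL/6J mice aged 2 months was immunoprecipitated with a monoclonal antibody against Fos and sequenced. A group of 3 libraries came from mice given saline. The other group of 3 came from mice given kainic acid, a glutamate analogue used to induce seizures, as 2 injections of 10 mg/kg into the peritoneum 30 min apart, and killed 1 h after the first injection with seizures of level 4. The remaining library was input chromatin and is not analysed here. Both groups share strain, genotype and age. The labels do not say whether the 3 libraries of a group came from separate animals, nor how many animals went into each, so p-values here measure only the spread between these libraries, which may be technical. The whole hippocampus was used, so principal neurons, interneurons and glia contributed together, and fewer cells with a bound site cannot be told apart from less binding per cell. A peak list carries no expression values, so the tissue could not be checked against marker genes.

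At a presynaptic terminal, the vesicle SNARE synaptobrevin (Vamp) zippers with syntaxin and SNAP-25 on the plasma membrane and pulls the membranes together. Complexins and tomosyns (Stxbp5, Stxbp5l) tune that assembly. Several synaptotagmins, though not all, and the Doc2 proteins bind calcium and couple its entry to fusion. NSF with its SNAP adaptors (Napa, Napb) takes spent complexes apart. RIM, Munc13 (Unc13), ELKS (Erc), Bassoon and Piccolo (Pclo) hold vesicles and calcium channels together at the active zone, while synapsins, Rab3 and SV2 proteins sit on the vesicle. Fos is made within minutes of strong neuronal firing and binds DNA with a Jun partner as AP-1, at the heptamer TGACTCA and, less tightly, at the CRE octamer TGACGTCA.

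Promoters are shown first, since a region at a gene start is the simplest case of a peak that belongs to one gene. RefSeq start sites were at hand for 34 of the 46 members, in 43 windows of 300 bases (250 before the start site and 50 from it on). A kainic acid region overlapped 6 of the 43 member windows, 14.0%, against 5.15% of all 21263 windows of protein-coding genes. Each of the 6 belonged to a different gene: the active zone genes Erc2, Rims1 and Unc13a, the SNARE recycling and regulator genes Napa and Cplx2, and the vesicle gene Sv2c. The region at Cplx2 was present in all 3 kainic acid lists and in saline replicate 2, and the other 5 regions were each present in 2 kainic acid lists and in no saline list. These counts belong to the merged region, which can reach past the window. Inside the 300 bases, Napa had a peak of kainic acid replicate 2 only, and Cplx2 had none of kainic acid replicate 1. The stretch from 200 bases before the start site through the first 10 bases from it is printed 5′ to 3′ on the strand of the gene, from RefSeq (GRCm38.p6), for Erc2 (chr14:27622207-27622416, plus strand), Rims1 (chr1:22806149-22806358, minus), Unc13a (chr8:71671748-71671957, minus), Napa (chr7:16098380-16098589, plus), Cplx2 (chr13:54302356-54302565, plus) and Sv2c (chr13:96132568-96132777, minus). Syt2 (chr1:134709100-134709309, plus) is added because it held an AP-1 heptamer in the promoter window shown. None of the 6 lists had a peak near this gene. The window of its other start site, nearer the 5′ end of the span, held neither heptamer nor octamer. Capitals mark a TGACTCA heptamer (TGAGTCA on the other strand) or a TGACGTCA octamer.
Erc2: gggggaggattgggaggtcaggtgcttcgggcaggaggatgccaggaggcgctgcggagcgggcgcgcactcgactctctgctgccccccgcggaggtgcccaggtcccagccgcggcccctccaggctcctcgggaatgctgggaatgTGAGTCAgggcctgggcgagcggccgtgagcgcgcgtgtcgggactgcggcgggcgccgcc
Rims1: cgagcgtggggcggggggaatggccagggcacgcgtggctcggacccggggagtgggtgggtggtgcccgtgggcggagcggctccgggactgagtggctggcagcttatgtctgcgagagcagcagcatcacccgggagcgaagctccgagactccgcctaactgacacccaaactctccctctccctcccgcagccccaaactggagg
Unc13a: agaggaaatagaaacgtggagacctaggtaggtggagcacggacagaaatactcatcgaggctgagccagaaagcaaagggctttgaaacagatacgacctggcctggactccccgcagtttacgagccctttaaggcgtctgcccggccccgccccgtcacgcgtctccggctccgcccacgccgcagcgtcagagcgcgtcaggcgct
Napa: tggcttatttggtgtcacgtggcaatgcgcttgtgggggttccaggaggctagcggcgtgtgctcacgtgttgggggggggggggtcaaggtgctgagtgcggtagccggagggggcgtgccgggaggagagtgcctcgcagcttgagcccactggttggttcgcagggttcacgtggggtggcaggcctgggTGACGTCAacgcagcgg
Cplx2: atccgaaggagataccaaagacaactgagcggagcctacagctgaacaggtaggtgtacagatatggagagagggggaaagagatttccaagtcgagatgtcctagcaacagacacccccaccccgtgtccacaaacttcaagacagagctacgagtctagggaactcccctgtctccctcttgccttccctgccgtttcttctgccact
Sv2c: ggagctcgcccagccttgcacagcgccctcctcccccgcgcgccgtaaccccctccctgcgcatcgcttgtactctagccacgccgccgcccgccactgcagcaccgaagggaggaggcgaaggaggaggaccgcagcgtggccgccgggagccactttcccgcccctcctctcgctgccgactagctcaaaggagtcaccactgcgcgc
Syt2: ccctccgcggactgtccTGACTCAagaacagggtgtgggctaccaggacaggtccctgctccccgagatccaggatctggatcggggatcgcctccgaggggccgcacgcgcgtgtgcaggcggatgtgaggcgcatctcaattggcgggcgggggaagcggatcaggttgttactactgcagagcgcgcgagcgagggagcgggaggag

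Only exact letters were searched, on both strands: TGACTCA, whose reverse complement is TGAGTCA, and TGACGTCA, which reads the same on both strands. Neither motif contains the other. The heptamer occurred in 4.66% of all 21263 promoter windows and in 17.3% of the 1096 windows that overlapped a kainic acid region. Among members it occurred in 3 of 43 windows: in Erc2 with its first base at position -51 from the start site, in Syt2 at -183, and in Syt6 at 11 bases past the start site, beyond the printed stretch. Syt2 and Syt6 have more than 1 start site, and each position is counted from the site whose window held the heptamer. Only the Erc2 window overlapped a kainic acid region. The octamer occurred in 2.23% of all windows and in 4.47% of those overlapping a region. Napa was the only member with it, at position -7. The Rims1, Unc13a, Cplx2 and Sv2c windows held neither motif in these 300 bases. A match is a description of the letters, not a measured site.

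The lists differed widely in length. Kainic acid replicates 1, 2 and 3 held 15009, 63197 and 29650 peaks, and saline replicates 1, 2 and 3 held 7, 3277 and 2. Replicate 2 was thus the longest list in each group, and 2 of the 3 saline lists were almost empty. Merging all peaks that shared at least 1 bp gave 26862 regions present in at least 2 kainic acid lists, called kainic acid regions below. The authors' fold of a peak over its local background is not scaled between libraries, so it is given per list and as a percentile rank within the list, where 0 is the highest fold, and a region's rank is the mean over the kainic acid lists that hold it.

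Near the 46 members, kainic acid replicates 1, 2 and 3 had 116, 430 and 234 peaks, and saline replicates 1, 2 and 3 had 0, 19 and 0. The groups did not overlap, with 116 peaks in the lowest kainic acid library and 19 in the highest saline library. The mean was 260 ± 159 (SD, n = 3) after kainic acid and 6.33 ± 11.0 (SD, n = 3) after saline. On the log10(number + 1) scale the difference was 1.92, with an exact permutation test giving two-sided p = 0.1, the smallest p that 3 against 3 allows. Peaks near any protein-coding gene separated the groups too, with 10894 in the lowest kainic acid library and 3093 in the highest saline library. On that scale the difference was 2.99 there and 2.85 over all peaks (exact permutation test, two-sided p = 0.1 each). The separation was therefore not particular to the members. As a share of each list, peaks near members made up 0.773%, 0.680% and 0.789% of kainic acid replicates 1, 2 and 3 and 0.580% of saline replicate 2.

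Counted by gene, 35, 45 and 41 of the 46 members had a peak in kainic acid replicates 1, 2 and 3, and 0, 11 and 0 in the saline replicates. The share of members was 76.1%, 97.8% and 89.1% in the kainic acid lists, where 26.4%, 60.3% and 40.9% of all protein-coding genes had a peak. In saline replicate 2 it was 23.9%, against 17.0% of all genes. The members therefore had peaks more often than the average gene in each of the 3 kainic acid lists. In saline replicate 2 their share, over 11 members, was closer to that of all genes. Shares in single lists were not compared within classes of gene length, and the members are long genes. The mean number of members with a peak was 40.3 ± 5.03 (SD, n = 3) after kainic acid and 3.67 ± 6.35 (SD, n = 3) after saline, a difference of 36.7 (exact permutation test, two-sided p = 0.1, the smallest possible).

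**Figure D1:**
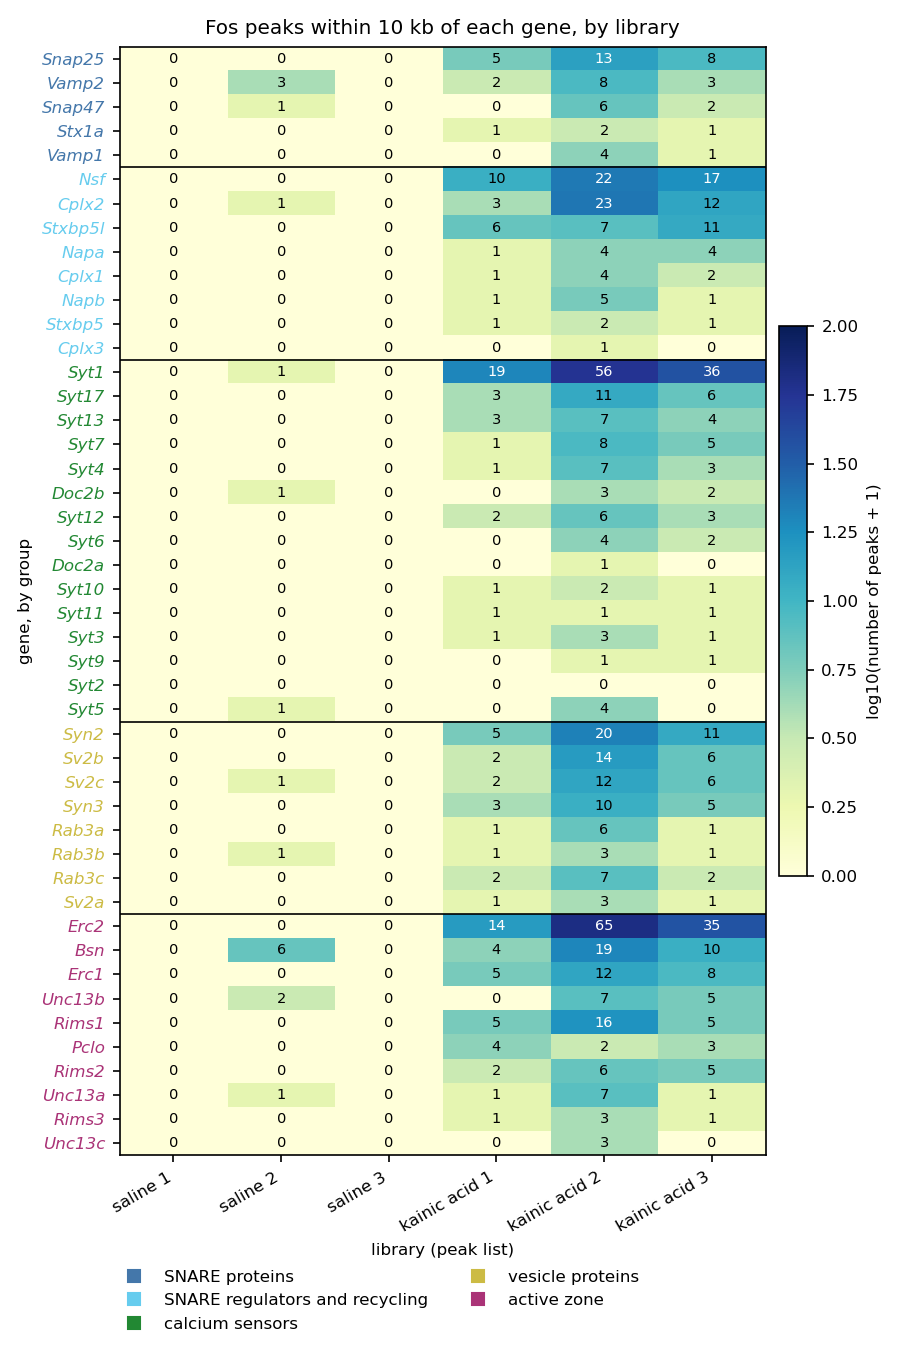
Number of Fos peaks within 10 kb of each of the 46 members (rows, coloured by role) in each of the 6 lists (columns), with shading on the scale log10(number + 1). The columns of saline replicates 1 and 3 are 0 throughout, saline replicate 2 has peaks at 11 genes, and Erc2 and Syt1 have the highest counts in all 3 kainic acid columns.

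A kainic acid region lay at 42 of 46 members (91.3%), against 40.0% of all protein-coding genes. Because the list was drawn up with earlier results of these data known, its share is a description and not independent evidence. A region present in all 3 kainic acid lists lay at 33 of 46 (71.7%), against 23.9%. The members are long genes: the median span was 68.1 kb, against 17.2 kb over all protein-coding genes, and a longer gene offers more room for a region. The shares were therefore set side by side within classes of length. Under 20 kb, 8 of 10 members had a region, against 26.3% of genes of that length. Between 20 and 50 kb all 10 of 10 did, against 42.7%, and between 50 and 100 kb all 8 of 8 did, against 58.9%. For longer genes the gap closed, with 6 of 7 members against 76.8% between 100 and 200 kb, 7 of 7 against 86.9% between 200 and 500 kb, and 3 of 4 against 94.7% above 500 kb. The members' share thus stood well above that of genes of like length below 100 kb and close to it above. Of the 8 members under 20 kb with a region, Doc2a, Rab3a and Vamp2 had none when each region was given to its nearest gene only. Shares by length were not computed under that rule. The comparison genes include genes of every tissue, and expression was not measured, so whether genes active in hippocampal neurons in general have the same share was not tested.

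The members had 210 kainic acid regions, a median of 2 and a mean of 4.57 per gene, against 0 and 1.07 over all protein-coding genes. Per 100 kb of span with its flanks, the median member had 2.95 regions (1.19 when kainic acid replicate 2 was left out and 1.41 when replicate 3 was) and the median gene 0, and pooled over their whole length the members had 2.71 and all genes 1.58. By class, the mean density of members and of genes was 4.77 and 1.34 under 20 kb, 3.54 and 1.48 from 20 to 50 kb, 5.49 and 1.60 from 50 to 100 kb, 3.16 and 1.82 from 100 to 200 kb, 1.33 and 1.87 from 200 to 500 kb, and 2.52 and 1.40 above 500 kb. Members of 200 to 500 kb were the only class with a mean density below that of genes of their length. Of these, Pclo, Rims2, Syn3 and Rab3c lay below the 1.87 of genes of that length. Erc1, Unc13b and Stxbp5l lay above it, at 2.35, 2.09 and 2.01. Above 500 kb the share was lower and the mean density higher than that of genes of that length, over 4 members. Under 20 kb the members' mean includes Vamp2, at 12.6, whose regions were all lost when each went to its nearest gene.

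**Figure D2:**
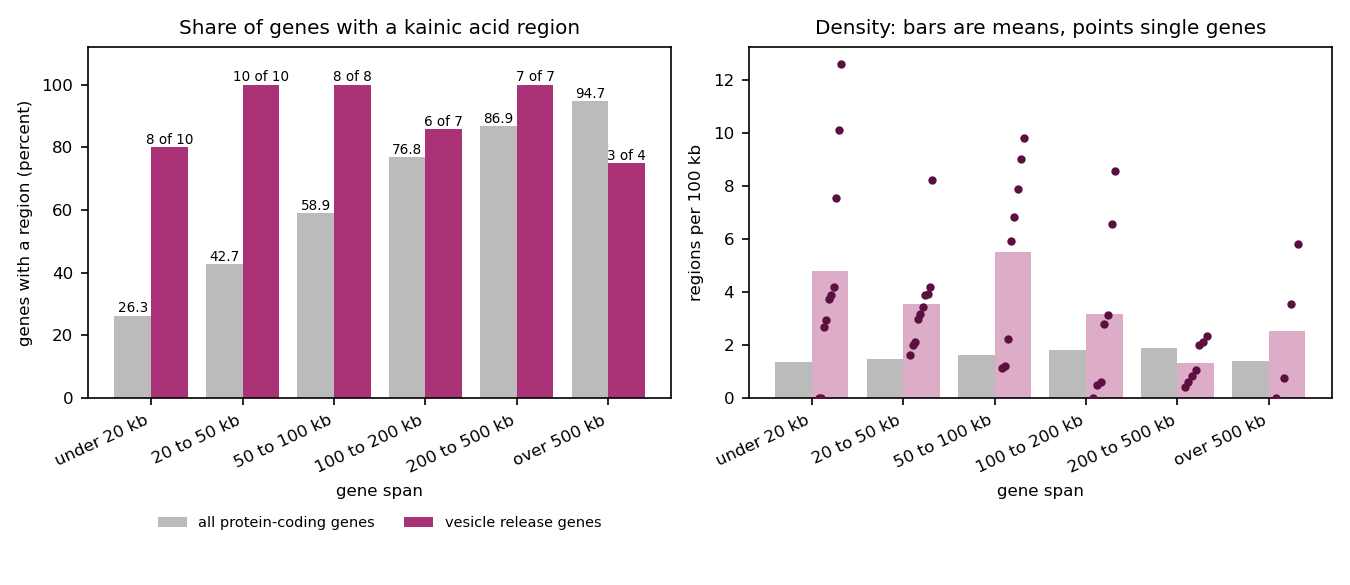
Left, percent of genes with a kainic acid region by class of gene span, for all protein-coding genes (grey) and the members (magenta, with counts); right, mean regions per 100 kb (bars) and single members (points). Members stand above genes of their length in the classes under 100 kb, and 3 of 4 members above 500 kb had a region where 94.7% of genes did.

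The count depended on the longer lists. Without kainic acid replicate 1, 42 members still had a region in the other 2 lists, but 33 did without replicate 2 and 35 without replicate 3. The share of all protein-coding genes moved as well, to 38.8%, 23.9% and 25.6% without replicates 1, 2 and 3. The genes lost without replicate 2 were the SNAP adaptor Napb, the SNARE genes Vamp1 and Snap47, the sensors Syt6, Syt9, Doc2a and Doc2b, and the priming factors Unc13a and Unc13b. Without replicate 3 the same genes were lost except Napb and Unc13a. None of these 9 had a region in all 3 lists. Of the 210 regions, 92 (43.8%, exact binomial 95% interval 37.0 to 50.8%) were in all 3 lists, close to the 44.4% of all kainic acid regions. Of the 118 in exactly 2 lists, 107 were in replicates 2 and 3, 10 in replicates 1 and 2, and 1 in replicates 1 and 3. Replicates 2 and 3 were the longest lists.

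The members' regions were of ordinary strength for these lists. Their median rank was 43.3 (quartiles 26.6 and 61.2), against 42.2 (25.2 and 58.7) for all kainic acid regions. In kainic acid replicates 1, 2 and 3 the median fold of the members' peaks in regions was 4.39, 5.67 and 4.28, and that of all regions was 4.47, 5.89 and 4.17. The highest member fold was 18.2, 25.9 and 17.3 and the lowest 2.63, 2.48 and 2.25. Behind these folds, the median number of reads at the summit was 22, 26 and 27, with ranges of 14 to 83, 11 to 111 and 14 to 86. Regions ranked below 10 made up 17 of 210 (8.10%), against 7.72% of all regions, those ranked below 5 made up 3 of 210 (1.43%), against 3.43%, and those ranked below 1 made up 2 of 210 (0.952%), against 0.644%. The members thus differed from the average gene in the number of regions more than in their rank. The strongest region of a member had a median rank of 21.0, against 30.5 for genes with a region, and a gene with more regions has more chances of a low rank.

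Among SNARE proteins, all 5 genes had a region, 3 of them in all 3 lists, with 15 regions and a median density of 3.74 per 100 kb. Vamp2, the main synaptobrevin of forebrain terminals, had the strongest one at chr11:69102060-69102956, with folds of 6.70, 16.7 and 8.46 in kainic acid replicates 1, 2 and 3 and a mean rank of 5.06. Saline replicate 2 also had a peak in this region, beyond 10 kb of Vamp2 and so not counted for it. The region lies inside the neighbouring gene Per1, an activity-induced clock gene. When each region was given to its nearest gene only, Vamp2 had none, so its regions cannot be told apart from those of Per1. Snap47, a SNAP-25 relative, had its strongest region at chr11:59411994-59412735 in replicates 2 and 3 only, with folds of 6.52 and 5.74. Stx1a, the syntaxin of the plasma membrane, had a single region at chr5:135028670-135029337 in all 3 lists, with folds of 5.20, 6.73 and 5.48. Snap25, the other plasma membrane SNARE, had 8 regions, 3 of them in all 3 lists, and its peaks numbered 5, 13 and 8 in kainic acid replicates 1, 2 and 3 with none in saline. In its length class, 1.71% of protein-coding genes had at least 8 regions. Its strongest region had a mean rank of 26.9, so Snap25 stood out by number and not by fold. Vamp1 had 1 region, in 2 lists, with a mean rank of 46.1.

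The regulators and recycling factors had regions at 7 of 8 genes, 6 of them in all 3 lists, with 37 regions and a median density of 3.65 per 100 kb. Nsf, the ATPase that takes SNARE complexes apart, had 13 regions with 9 in all 3 lists, and 10, 22 and 17 peaks in kainic acid replicates 1, 2 and 3. Of genes of its length, 2.36% had as many regions or more. Its strongest, at chr11:103937139-103938812, had folds of 5.19, 10.8 and 7.70 and a mean rank of 12.7. A region after the end of Nsf, counted among the 13, lies inside the neighbouring gene Wnt3. Cplx2, the complexin of excitatory forebrain neurons, had 10 regions in a span of 82.0 kb, and 0.874% of genes of its length had as many. Only 2 of those 10 were in all 3 lists, and the peaks numbered 3, 23 and 12 in the kainic acid replicates. Stxbp5l, a tomosyn, had 6 regions, the strongest at chr16:37371983-37373305 with folds of 6.33, 8.15 and 5.49. Cplx1 had 2 regions, Stxbp5 had 1, Napa 3 and Napb 2, with mean ranks of the strongest between 22.6 and 46.2. Cplx3 had no region.

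The synaptotagmins and Doc2 proteins included the 2 genes with the best ranked regions of the 46. They also included Syt2, the only member without a peak in any list. Of 15 genes, 13 had a region and 9 had one in all 3 lists, for 61 regions and a median density of 3.89 per 100 kb. Syt12, a synaptotagmin whose C2 domains do not bind calcium, had the best ranked region of all members, at chr19:4481541-4482815, with folds of 13.4, 24.8 and 17.3 in kainic acid replicates 1, 2 and 3 and 55, 91 and 86 reads at the summit. The mean rank was 0.203, so it lay among the highest folds of each list. A second Syt12 region at chr19:4477439-4478237 had folds of 6.72, 12.1 and 8.54. Both lay outside the gene, 4999 and 807 bp from its nearer end, so Syt12 had no region when the flanks were left out. No saline list had a peak near the gene.

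Syt1, the fast calcium sensor of most forebrain synapses, had 31 regions, of which 12 were in all 3 lists. Its peaks numbered 19, 56 and 36 in the kainic acid replicates and 0, 1 and 0 in the saline replicates. The strongest, at chr10:108852344-108853900, had folds of 18.2, 25.9 and 10.3 and 83, 111 and 68 reads at the summit, for a mean rank of 0.572. It lay inside the gene, 156 kb from the nearest annotated start site. In its densest window of 100 kb, Syt1 had 14 regions, between 370 and 465 kb from its 5′ end. The gene spans 513 kb, and 8.81% of genes above 500 kb had as many regions. Syt3 had 1 region, at chr7:44382291-44383176, with folds of 5.48, 14.7 and 9.56. Syt10, a sensor linked to secretion of growth factor, had 1 region, 3438 bp before its start site at chr15:89844963-89845956, with folds of 5.52, 10.5 and 7.95. The remaining genes of this group with a region (Syt4, Syt6, Syt7, Syt9, Syt11, Syt13, Syt17, Doc2a and Doc2b) had 1 to 6 regions. Their strongest had mean ranks from 10.0 to 59.8. The Doc2a region reached the 10 kb flank only with its edge and lies inside Hirip3. Syt2 and Syt5 had none.

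All 8 vesicle protein genes had a region in all 3 lists, with 32 regions and a median density of 2.87 per 100 kb. The 4 best ranked were long genes. Sv2c, the SV2 protein with the most restricted brain distribution, had its strongest region at its start site (chr13:96131976-96133345), with folds of 9.72 and 7.55 in replicates 2 and 3 and no peak in replicate 1. Rab3c, a vesicle GTPase, had a single region in 227 kb, at chr13:110218280-110219603, with folds of 6.13, 13.2 and 8.15. Syn3, the synapsin of immature neurons, had 5 regions, 3 of them ranked below 10, the strongest at chr10:86145451-86146284 with folds of 6.72, 13.8 and 6.55. The Syn3 span contains Timp3, and a region counted for Syn3 lies inside that gene. Syn2, which tethers the reserve pool of vesicles, had 11 regions, 6 in all 3 lists, with 5, 20 and 11 peaks in the kainic acid replicates and a strongest region after the end of the gene, at chr6:115283635-115284758, with folds of 7.68, 10.8 and 5.96. Of genes of its length, 3.96% had as many. Rab3a, Rab3b, Sv2a and Sv2b had 1 to 6 regions, and mean ranks of their strongest lay between 42.6 and 56.3, so these genes split into a well ranked and a poorly ranked set of 4 each.

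At the active zone, 9 of 10 genes had a region and 7 had one in all 3 lists. These genes held the most regions, 65, and the lowest median density, 1.86 per 100 kb, over a median span of 313 kb. Bsn, the scaffold Bassoon, had 9 regions in 94.4 kb, and 1.07% of genes of its length had as many. Of the 9, 4 were in all 3 lists, and 4 were left without kainic acid replicate 2 or without replicate 3. Its strongest, at chr9:108137308-108138473, had folds of 9.50, 12.7 and 7.43, with 62, 77 and 54 reads at the summit and a mean rank of 3.69. Erc2, the brain-specific ELKS protein, had 31 regions with 14 in all 3 lists, and 14, 65 and 35 peaks in kainic acid replicates 1, 2 and 3 with none in saline. Its strongest region, at chr14:27860256-27861180, had folds of 5.76, 15.7 and 10.5, and its densest 100 kb held 14 regions between 186 and 279 kb from the 5′ end. Erc2 spans 856 kb, and as for Syt1, 8.81% of genes above 500 kb had as many regions. Erc1, its broadly expressed relative, had 7 regions, which 32.1% of genes of its length reached, and its strongest at chr6:119843273-119843737 was in replicates 2 and 3 with folds of 8.10 and 5.74.

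The other large scaffolds were near the middle of genes of their length or somewhat below it. Rims1 had 4 regions in 520 kb, and 34.8% of genes above 500 kb had as few. Rims2 had 3 in 486 kb and Pclo 3 in 349 kb, and 45.0% of genes of 200 to 500 kb had as few. Rims3 had 1, and the priming factors Unc13b and Unc13a had 5 and 2. Of the 5 at Unc13b, 2 lay inside its span and the others inside the neighbouring genes Fam214b or Atp8b5. The strongest region of Unc13b and that of Unc13a had mean ranks of 54.9 and 71.7, the latter the poorest of all members. Unc13c had none in 529 kb, where 12 of 227 genes above 500 kb (5.29%) had none. Erc2 and Syt1 together held 62 of the 210 regions (29.5%), and the 8 members with most regions held 120 (57.1%).

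**Figure D3:**
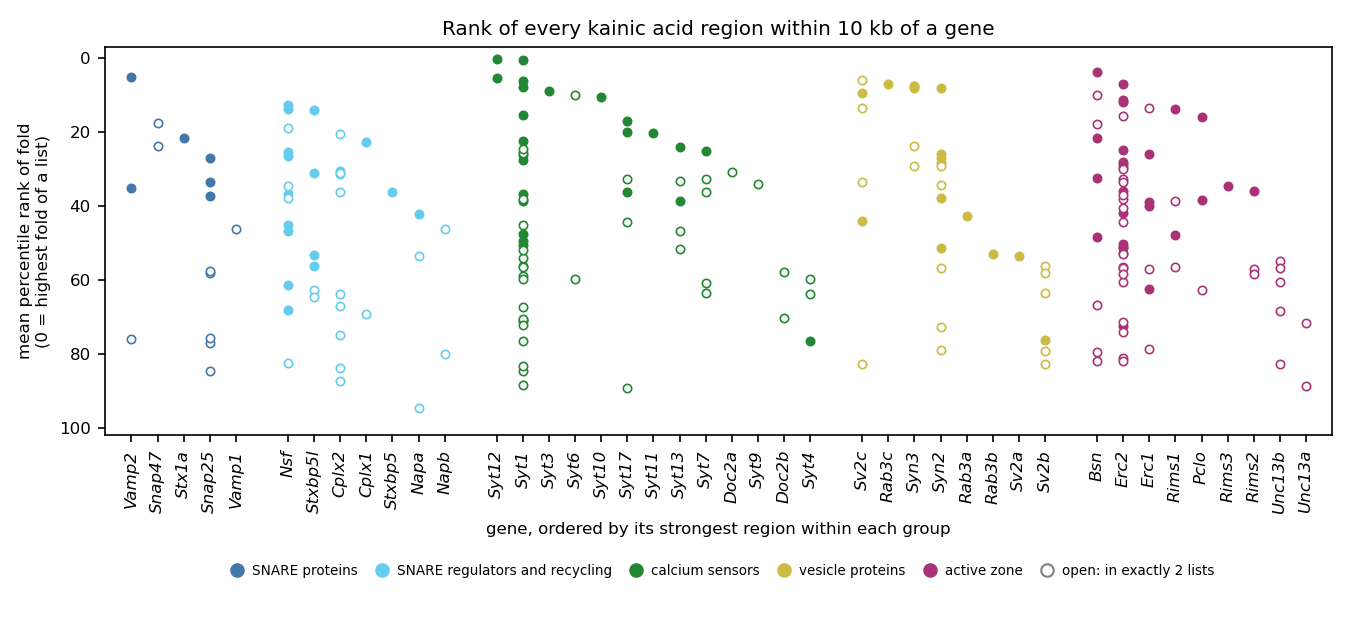
Mean percentile rank of the fold (0 is the highest fold of a list) of each kainic acid region, by member and coloured by role; filled points are regions in all 3 lists and open points regions in exactly 2. The best regions of Syt12 and Syt1 lie below 1, that of Bsn is at 3.69, and the rest spread around the median of 43.3.

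Most regions lay inside the genes. Of the 210, 175 (83.3%) had their summit inside the span of the member, against 74.2% of the 23505 pairs of region and gene over all protein-coding genes. Before the start lay 14, after the end 7, and in a flank of a gene whose strand was not at hand another 14. Within 1 kb of a gene start were 13 regions (6.19%, exact binomial 95% interval 3.34 to 10.4%), against 9.31% of all pairs. For 12 members no start site was at hand and either end of the span was taken. Over members with a RefSeq start, 8 of 167 regions lay within 1 kb of it (4.79%, interval 2.09 to 9.22%), against 9.50% over all genes, and the median distance to the start was 64.6 kb, against 23.1 kb. The 8 were at Bsn, Cplx2, Erc2, Napa, Rims1, Stxbp5l, Sv2c and Unc13a. Where either end was taken, Doc2b, Snap25, Syt4 and Syt12 were added. The 13 regions at starts had a median rank of 56.4, against 42.1 for the members' other regions and 45.9 for start regions of all genes. Their ranks ran from 5.51 at Syt12 to 88.6 at Unc13a, and they include those where either end was taken. The members are long genes, and distances to a start were not compared within classes of length, so a role of length was not tested.

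**Figure D4:**
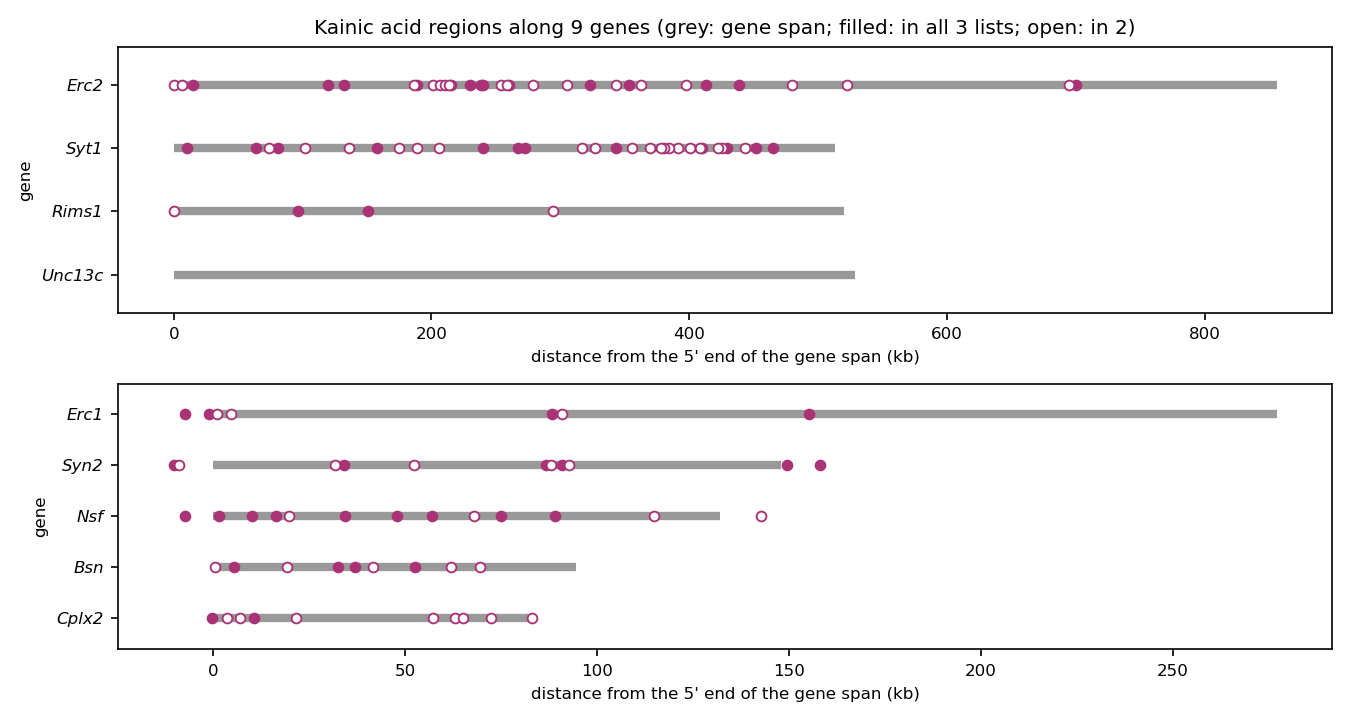
Kainic acid regions along 9 members (the 8 with most regions other than Snap25, plus Rims1 and Unc13c), as distance in kb from the 5′ end; the grey bar is the gene span, filled points are regions in all 3 lists and open points regions in 2. Erc2 and Syt1 have 14 regions in their densest 100 kb, while Rims1 has 4 in 520 kb and Unc13c none in 529 kb.

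Some of the regions lay on ground shared with neighbouring genes, and how often this holds over all genes was not computed. Of the 210 regions, 9 lay inside another protein-coding gene: Hirip3 for Doc2a, Wnt3 for Nsf, Timp3 for Syn3, 1700008O03Rik for Syt3, Fam214b and Atp8b5 for Unc13b, and Per1 for Vamp2. Outside the member's span lay 35, of which 13 were nearer to or inside another gene. Given to the nearest gene only, 39 of 46 members had a region, against 33.1% of all protein-coding genes. Doc2a, Rab3a and Vamp2 were the members that then lost theirs.

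The 4 members without a kainic acid region were Cplx3, a complexin of retinal ribbon synapses, Unc13c, a Munc13 of cerebellar granule cells, Syt2, the fast sensor of hindbrain and inhibitory terminals, and Syt5. Their peaks in kainic acid replicates 1, 2 and 3 numbered 0, 1 and 0 for Cplx3, 0, 3 and 0 for Unc13c, 0, 0 and 0 for Syt2, and 0, 4 and 0 for Syt5. Replicate 2, the longest list, thus held every peak near these genes after kainic acid. A region that is missing was not called, which does not show that it was unbound.

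Saline replicate 2 held all 19 saline peaks near members, at 11 genes: 6 near Bsn, 3 near Vamp2, 2 near Unc13b and 1 each near Cplx2, Doc2b, Rab3b, Snap47, Sv2c, Syt1, Syt5 and Unc13a. Only 3 of the 19 fell in a kainic acid region (15.8%, against 17.0% of the whole list), at Cplx2, Sv2c and Vamp2. A further 4 met a peak of 1 kainic acid list and 12 met none. Within 1 kb of a start were 7 of the 19 (36.8%, exact binomial 95% interval 16.3 to 61.6%), against 49.9% of pairs of saline peak and gene over all genes. The saline peaks thus sat at starts more often than the members' kainic acid regions did, and mostly elsewhere. The highest was 126 bp before the start of Snap47, at chr11:59449940-59450316, with a fold of 7.08 and a rank of 0.214, and it lay inside the neighbouring gene Jmjd4. No kainic acid list had a peak there. At Bsn, 4 of the 6 lay between 77318 and 82862 bp from the start, in the distal part of the gene, and none of the 6 met a kainic acid peak.

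Beyond the members, 60 other presynaptic genes were counted the same way (further syntaxins, SNAP and Vamp proteins, liprins, synucleins, endocytic proteins, vesicular transporters and others). A kainic acid region lay at 45 of 60 (75.0%), against the background of 40.0%, and 30 had one in all 3 lists. Their median span was 45.7 kb and their median density 2.39 regions per 100 kb, against 2.95 for the members. Under 20 kb, 7 of 15 of these genes had a region, against 26.3% of all genes of that length. From 20 to 50 kb 15 of 20 did, against 42.7%, and from 50 to 100 kb 6 of 7, against 58.9%. From 100 to 200 kb 8 of 9 did, against 76.8%. From 200 to 500 kb 8 of 8 did, against 86.9%, and above 500 kb 1 of 1, against 94.7%. Ppfia2, a liprin of the active zone, had the most with 24 regions, followed by Apba2, an adaptor that binds Munc18, with 16. Rimbp2, which links RIM to calcium channels, and Syt16 had 10 each. The 15 without a region included the vesicular transporter genes Slc17a7, Slc32a1 and Slc18a3, while Slc17a6, which like Slc17a7 loads glutamate into vesicles, had 1 region in all 3 lists. Whether the members' share differs from that of these genes was not tested.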

How the data were processed

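Each of 6 Fos ChIP-seq libraries (3 saline, 3 kainic acid) came as 1 peak list called per sample, none pooled. Per the submitters' processing notes, the tools were Trim Galore 0.6.4, Bowtie2 2.3.4.3, MACS2 and deepTools 3.5.0 and the build mm10; the peak names carry trimmed reads and a mapping quality of 30. The cutoff and the control are not given in the sources used here. Scores in the deposited files equal −log10 q times 10, truncated to whole numbers. The authors' fold is a ratio of summit to local background, computed separately in every library like their −log10 p and −log10 q, so these values served only within a list. Read totals are unknown; reads at a summit were solved from fold and −log10 p, as deposited, for 512 of 512 peaks in the members' regions, to a tolerance of 0.001. Intervals cover counting error only.

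Peaks sharing at least 1 bp were merged over the 6 lists (pandas 2.3.3, numpy 2.4.6), and a kainic acid region needed peaks in 2 of 3 kainic acid lists. Spans are RefSeq GRCm38.p6, which has the coordinates of mm10, and start sites and strands come from the RefSeq promoter table for 34 members. Merging was tested on simulated intervals. Groups were compared with exact permutation tests (scipy 1.17.1). Shares of all protein-coding genes by length class stand in for a length-matched draw. Genes named are the 3 best ranked of each role, the 8 with most regions, those with no region, a saline peak or a region at a start; genes beside these were named after their values were seen. Members and lists were chosen with earlier results of these data known. Alternatives were stricter q, 3 lists, lists of equal length, summit distance, reach, nearest gene and each library left out.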

Additional observations from a re-analysis of the deposited data

How the results depend on the processing

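The number of members with a region stayed within 1.5 times of 42 under every alternative run, from 30 (−log10 q of at least 10, where 19.6% of all genes had one) to 44 (reach of 50 kb, 62.7%). The number of regions did not: it was 92 in all 3 lists, 134 and 67 at a −log10 q of at least 5 and 10, 99 with kainic acid lists of equal length, and between 94 and 199 with a kainic acid library left out, 94 without replicate 2 and 101 without replicate 3, since fewer peaks or lists enter. The median density ranged from 0.736 to 2.95 per 100 kb over these alternatives. The median rank of the strongest region moved from 21.0 to 9.39 at a −log10 q of at least 10, which removes low folds. The other presynaptic genes with a region numbered 28 there and 31 to 43 with a library left out. The share of regions at a start was 12.4% within 2.5 kb. Saline peaks near members numbered 3 at a −log10 q of at least 5 and 44 within 50 kb; these alternatives, and those for the other presynaptic genes and for single members, were chosen after seeing the data. Of 506 counts of regions for single members under an alternative, 311 stayed within 1.5 times, 176 were lower and 19 higher, and 61 became 0.

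The group differences ranged from 1.71 to 2.36 (log10 of the number of peaks + 1) and from 34.3 to 40.3 members with 1 library left out. With the replicate number as a block they were 1.92 and 36.7, each with an exact p = 0.25 (sign flips), the smallest that 3 pairs allow. The labels do not say that the numbers pair the libraries, and since saline replicates 1 and 3 had no peak at any member, no correlation between numbers could be computed. List length limits every count here: a region absent from a short list was not called, and no depth beyond reads at the summit is known.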
